A study of Papio anubis and Macaca fascicularis and Castor canadensis with 48 samples.

Results

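The genes described here are the 200 steadiest in expression across 15 combinations of species and organ in 8 mammals. They were selected by a rule on the measured levels, from 16816 gene IDs counted by RNA sequencing. The level of a gene in a library was its CPM, its count per 1000000 counts of that library, and the levels of the libraries of each species and organ were averaged. A total of 831 IDs (4.94% of all) reached at least 20 CPM in each of the 15 averages; these are called the screened genes below. Among them, the 200 with the lowest standard deviation (SD) of log2(group mean CPM + 1) over the 15 groups were taken, which is 24.1% of the screened genes and leaves 631. All values that compare the 15 group means therefore describe how the genes were chosen and are given without a test.

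The 48 libraries came from male wild-type adults, described in the protocols as young, and the series' title names mammalian longevity as its subject. Baboon (Papio anubis) was sampled as brain, kidney and liver with 6 libraries for each organ. The long-tailed macaque (Macaca fascicularis) was sampled as cerebellum (6), kidney (5) and liver (6), and the beaver (Castor canadensis) as brain (2) and liver (2). These 39 libraries belong to a collection from a primate research centre, and the other 9 to an earlier collection. The 9 are 2 chipmunk (Tamias sibiricus) livers, 2 sugar glider (Petaurus breviceps) livers, 1 kidney and 1 liver of American black bear (Ursus americanus), 1 brain and 1 liver of white-footed mouse (Peromyscus leucopus), and 1 liver of tube-nosed bat (Murina leucogaster). Collection and species cannot be told apart, since each species belongs to 1 collection. The labels number the replicates within a group but do not say which libraries share an animal, so the spread between libraries is given as the spread between replicates.

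Genes with steady expression in all tissues are often called housekeeping genes. As background, they typically serve processes that every cell needs, such as transcription, RNA splicing, protein synthesis and turnover, membrane traffic and energy metabolism. They are also used as internal references, against which the levels of other genes are expressed, so their steadiness depends on the quantity chosen as the common scale. The rows of the deposited table are identifiers of the Ensembl mouse type, and no gene symbol stands beside an ID in the table. In the reference table used here, 0 of the 16816 IDs matched a symbol. The genes are therefore given by ID, and neither their functions nor the organ markers that would test the tissue labels are reported.

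All 200 stable genes had counts in all 48 libraries. Library totals ranged from 6326129 counts in the white-footed mouse brain to 26801829 in macaque liver replicate 1. The lowest count of a stable gene was 130, for ENSMUSG00000020358 in the white-footed mouse brain, and 187 of the 200 reached 20 CPM in every single library. The middle stable gene had a median level of 88.9 CPM over the 15 groups, and these medians ran from 33.3 to 1610 CPM. A total of 58 stable genes had a lowest group mean under 30 CPM, as did 330 screened genes, and the lowest of these means was 20.03 CPM.

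Steadiness was relative. The SD across groups of the 200 genes ran from 0.35 to 0.73 on the log2 scale, with a median of 0.64, beside a median of 0.91 and a maximum of 5.22 over the screened genes. The highest group mean of a stable gene exceeded its lowest by a median of 4.57-fold, with a range from 2.35-fold to 10.2-fold, and the median over the screened genes was 9.06-fold. Only 12 of the 200 genes stayed under a 3-fold range, 60 stayed under 4-fold and 199 under 10-fold. The 60 screened genes under 4-fold were all among the 200. Within 2-fold of their own median level, 25 stable genes kept all 15 groups and 187 (93.5%) kept at least 12, against 40.4% of the screened genes. Within 1.5-fold of the median, 22 stable genes kept at least 12 groups and none of the 200 kept all 15 groups.

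The steadiest gene was ENSMUSG00000058443, with an SD of 0.35. In baboon brain its lowest, median and highest library values were 517, 589 and 718 CPM. In baboon kidney they were 783, 927 and 1016 CPM, and in baboon liver 759, 892 and 1237 CPM. Baboon brain libraries of this gene all lay below those of kidney and liver, while kidney and liver overlapped.

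In the long-tailed macaque, ENSMUSG00000058443 had a lowest, median and highest value of 608, 654 and 696 CPM in cerebellum. The liver libraries gave 611, 743 and 771 CPM. The 5 macaque kidney libraries gave 989, 799, 801, 856 and 842 CPM. Kidney thus lay above both other macaque organs in all libraries, and cerebellum overlapped liver.

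The remaining groups of ENSMUSG00000058443 held both its lowest and its highest mean. The beaver brains gave 984 and 949 CPM and the beaver livers 828 and 907 CPM. Chipmunk livers had 1067 and 981 CPM, and sugar glider livers 551 and 582 CPM, the lowest group mean at 566 ± 21.7 CPM (SD, n = 2). Single libraries gave 635 CPM in tube-nosed bat liver, 682 in white-footed mouse brain, 766 in white-footed mouse liver, 809 in bear liver and 1433 in bear kidney. Bear kidney was the highest of all 15 groups, 2.53-fold above sugar glider liver. In baboon the brain mean of 610 ± 80.2 CPM (SD, n = 6) was below the liver mean of 941 ± 169 CPM (SD, n = 6), whereas in beaver the brain mean of 966 ± 24.6 CPM (SD, n = 2) was above the liver mean of 867 ± 56.3 CPM (SD, n = 2). With TMM factors brain was the lower organ in both, by fitted log2 fold changes of -2.06 in baboon and -1.22 in beaver.

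**Figure D1:**
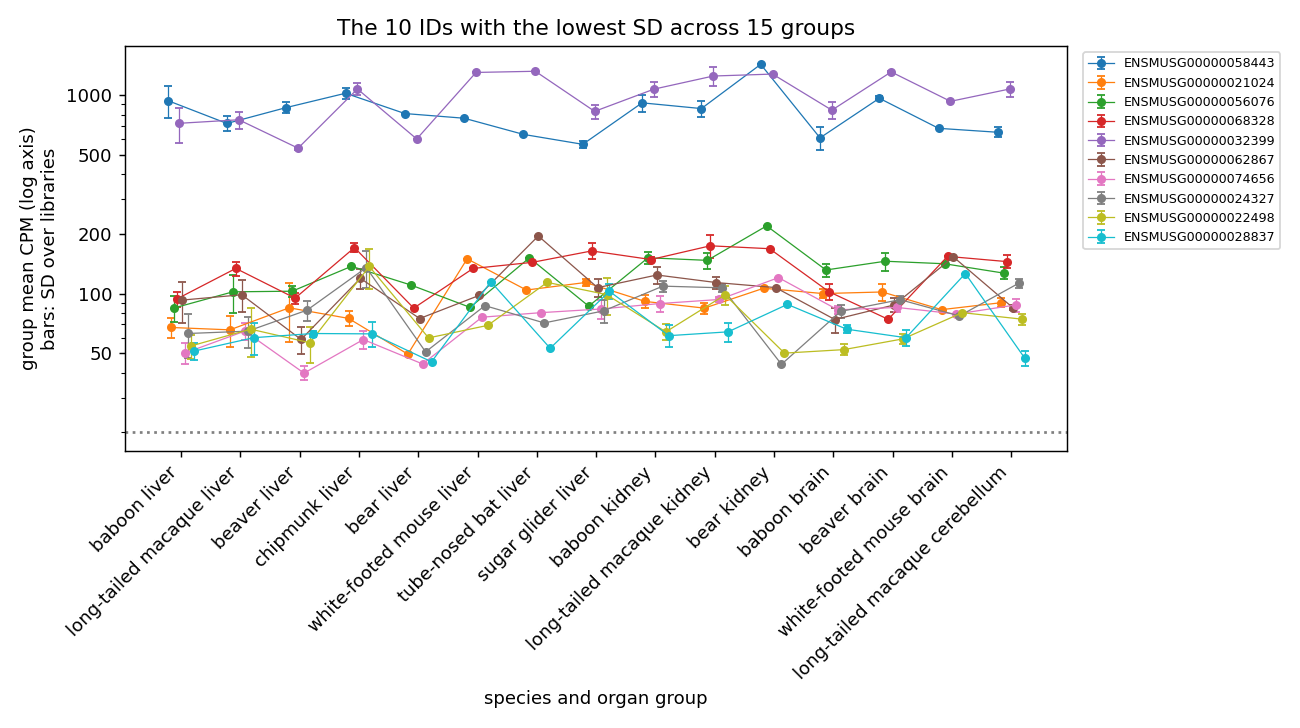
Mean CPM (log axis) of the 10 genes with the lowest SD in each of the 15 groups of species and organ, with bars for the SD over libraries where a group has more than 1 and a dotted line at the 20 CPM minimum. ENSMUSG00000058443 and ENSMUSG00000032399 lie above 500 CPM in all groups, and the other 8 genes lie between 39.8 and 220 CPM.

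Of the 10 steadiest genes, 2 were abundant. ENSMUSG00000032399 (SD 0.42) had group means from 542 CPM in beaver liver to 1322 CPM in tube-nosed bat liver, a range of 2.44-fold. The 8 others were of moderate abundance. ENSMUSG00000068328 (SD 0.40) had the narrowest range of all 200 genes, 2.35-fold, from 74.3 ± 0.168 CPM (SD, n = 2) in beaver brain to 174 ± 22.5 CPM (SD, n = 5) in macaque kidney. ENSMUSG00000056076 (SD 0.38) ran from 84.7 ± 12.6 CPM (SD, n = 6) in baboon liver to 220 CPM in the bear kidney library. For ENSMUSG00000021024 (SD 0.38) the range was 3.02-fold, from 49.6 CPM in bear liver to 150 CPM in white-footed mouse liver. The other 5 genes, ENSMUSG00000062867, ENSMUSG00000074656, ENSMUSG00000024327, ENSMUSG00000022498 and ENSMUSG00000028837, had SDs from 0.42 to 0.45 and ranges from 2.73-fold to 3.32-fold. Lowest and highest groups differed among the 10: bear kidney was the highest group for 3 of them and the lowest for 2.

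The border of the set was not a gap. The 3 genes just inside it were ENSMUSG00000024325, ENSMUSG00000061787 and ENSMUSG00000068039, with SDs of 0.7340, 0.7342 and 0.7343. Just outside lay ENSMUSG00000029407, ENSMUSG00000006299 and ENSMUSG00000090862, at 0.7349, 0.7360 and 0.7366. ENSMUSG00000068039, the last gene taken, ran from 72.6 CPM in macaque liver to 318 CPM in baboon brain.

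Fewest IDs passed the minimum in 3 single libraries. The number of IDs at 20 CPM or more was lowest in the white-footed mouse liver (2696), the bear liver (3437) and the white-footed mouse brain (3900), and highest in beaver brain (7986). A total of 1477 IDs reached the minimum in the 13 groups of the other species, and 646 of these (43.7%) failed in the white-footed mouse. White-footed mouse liver alone kept out 227 IDs, white-footed mouse brain alone 218 and bear liver alone 48. In the 2 white-footed mouse libraries the 10 most counted IDs took 45.5% of the liver counts and 29.4% of the brain counts.

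The stable genes shifted together between groups. Relative to each gene's own mean over the 15 groups, their median deviation on the log2 CPM scale was -0.69 in bear liver, -0.55 in baboon liver, -0.44 in beaver liver and -0.33 in macaque liver. At the other end it was 0.43 in bear kidney, 0.40 in macaque kidney, 0.36 in baboon kidney and 0.26 in beaver brain. In bear liver 190 of the 200 genes lay below their own mean, and in both primate kidneys 181 lay above it. How many screened genes lay on either side of their own mean was not counted. Their medians shifted the same way, to -0.82 in bear, -0.61 in baboon, -0.51 in beaver and -0.44 in macaque liver. At the other end they were 0.34 in bear kidney, 0.53 in macaque kidney, 0.54 in baboon kidney and 0.41 in beaver brain. In the primate kidneys and beaver brain the screened genes thus shifted further than the stable genes. The common shift of the stable genes made up 29.5% of their summed variance across groups. Their median SD was 0.51 once it was subtracted, against 0.64 before.

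On CPM the stable genes were lower in liver on average over groups, a direction that reversed under TMM scaling, but not in each liver. The median deviation was -0.15 in chipmunk liver but 0.06 in white-footed mouse liver, 0.10 in sugar glider liver and 0.21 in tube-nosed bat liver, the last 2 above the 0.08 of baboon brain. Averaged over the 8 liver groups and the 7 groups of other organs, 175 of the 200 genes (87.5%) were lower in liver, with a median difference of -0.50 on the log2 scale. Of the screened genes 83.3% were lower in liver, and their median was -0.68. A liver was the lowest group for 151 stable genes (75.5%, against 70.0% of the screened genes) and the highest for 63 (31.5%, against 28.9%). Summed, the 200 genes took 2.64 ± 0.337% (SD, n = 6) of a library's counts in baboon liver, 3.33 ± 0.164% (SD, n = 6) in baboon brain and 4.43 ± 0.169% (SD, n = 6) in baboon kidney. The baboon liver libraries ranged from 2.28% to 3.11% with a median of 2.54%, and so reached almost to the lowest brain library at 3.12%. In the macaque the sums were 2.81 ± 0.0884% (SD, n = 6) in liver, 3.73 ± 0.133% (SD, n = 6) in cerebellum and 4.62 ± 0.218% (SD, n = 5) in kidney, and the libraries of the 3 organs did not overlap. Sugar glider liver, at 3.73 ± 0.322% (SD, n = 2), and tube-nosed bat liver, at 3.99%, had larger sums than baboon brain.

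Several groups with a low share of stable genes were ones in which few IDs took many counts. The 10 most counted IDs took 42.8% of the counts in bear liver, 36.1 ± 0.867% (SD, n = 2) in beaver liver and 33.1 ± 4.29% (SD, n = 6) in the livers of baboon. They took 14.5 ± 1.89% (SD, n = 6) in baboon kidney, 9.17 ± 1.74% (SD, n = 6) in baboon brain and 4.30 ± 0.175% (SD, n = 2) in beaver brain. For the stable genes, the white-footed mouse and bear kidney libraries went against this order. In white-footed mouse liver the top 10 IDs took 45.5% of the counts, while the stable genes' median deviation was 0.06 and their sum 4.13%. In bear kidney the top 10 took 34.9%, with a median deviation of 0.43 and a sum of 4.92%. The screened genes had a median deviation of 0.34 in bear kidney. In the white-footed mouse, however, theirs was -0.36 in liver and -0.29 in brain. The order was loose for the screened genes as well. Their median was lower in bear liver, at -0.82, than in white-footed mouse liver. In baboon it was higher in kidney, at 0.54, than in brain, at 0.27. The part of these abundant IDs in the shift was not tested beyond the changes of scale described next. In these tissue samples, fewer cells of a type and less RNA per cell cannot be told apart.

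**Figure D2:**
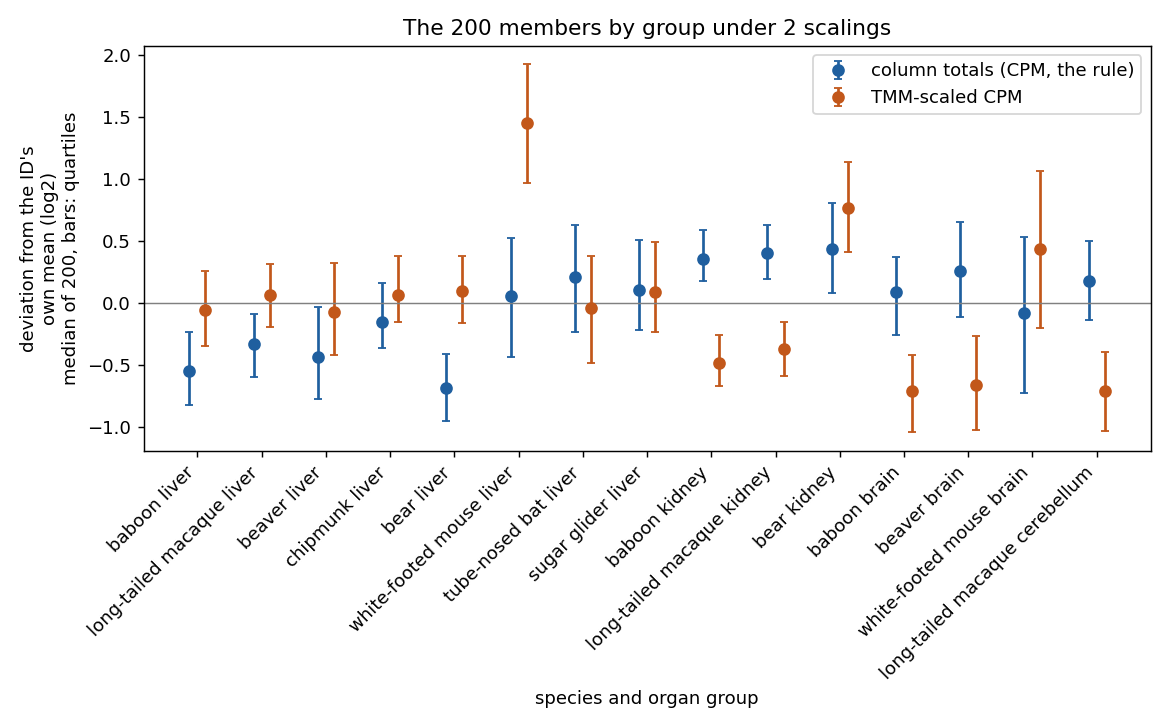
Median deviation (points; bars, quartiles) of the 200 stable genes from their own mean over the 15 groups, in log2 units, for CPM and for TMM-scaled CPM. With CPM most liver groups lie below 0 and the kidneys above it, whereas with TMM scaling the baboon and macaque brain, cerebellum and kidney groups lie below 0 and white-footed mouse liver lies at 1.45.

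The choice of scale decided both the direction of this shift and most of the membership. TMM scaling multiplies the total by a factor that evens the average log ratio to a reference library, with extreme genes left out. The method assumes that most genes do not differ. Its factors over the 48 libraries ranged from 0.318 in white-footed mouse liver and 0.485 in bear liver to 1.62 in a beaver brain. On TMM-scaled CPM the stable genes were higher in liver by a median of 0.41 on the log2 scale, with 184 of 200 higher and 16 lower. The screened genes were not counted this way on any scale other than CPM. Such splits are therefore not read as particular to the stable genes. The median SD of the stable genes rose to 0.75, beside 0.81 over the 1456 IDs that passed the minimum on that scale. With upper-quartile factors it was 0.81 beside 0.82, and with DESeq2 size factors 0.84 beside 0.83. The 200 genes that the rule picks on TMM-scaled CPM had 0.47, which is lower by the way they are chosen. The largest median deviation moved to white-footed mouse liver, at 1.45, and the lowest to baboon brain and macaque cerebellum, both at -0.71.

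Only 32 of the 200 genes were chosen again from the 1456 IDs that passed the minimum on TMM-scaled CPM. Upper-quartile factors, which scale by a high quantile of the counts, kept 24, and the size factors of DESeq2, a median of ratios, kept 17. The minimum was passed by 1515 IDs with upper-quartile and 1611 with DESeq2 factors. It was passed by 193 of the 200 genes with TMM, 192 with upper-quartile and 193 with DESeq2 factors. Whether overlaps of this size exceed those of 200 IDs drawn at random was not tested. With upper-quartile factors 191 of the 200 were higher in liver, with a median of 0.43, and with DESeq2 size factors 175 were, with a median of 0.35. Dropping the 10 most counted IDs from each library's total kept 141 genes and left the liver lower, with a median of -0.24 and 146 genes lower against 54 higher. None of the 10 steadiest genes stayed among the 200 under all 4 of these scalings. Under TMM their places among those 1456 IDs ran from 360 to 1007, and ENSMUSG00000058443 fell to place 778 with an SD of 0.84.

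A total of 17 genes were chosen under CPM and all 4 other scalings, a number not compared with a random overlap. In order of their CPM-based SD, the first 10 were ENSMUSG00000061136, ENSMUSG00000029148, ENSMUSG00000018848, ENSMUSG00000015165, ENSMUSG00000094973, ENSMUSG00000029147, ENSMUSG00000024991, ENSMUSG00000005370, ENSMUSG00000029146 and ENSMUSG00000024493. They held places 33 to 144 among the 200. ENSMUSG00000029148 was the steadiest gene of all on TMM-scaled CPM, with an SD of 0.26, and had an SD of 0.56 on CPM. ENSMUSG00000029147 held place 3 there, with an SD of 0.30, and ENSMUSG00000061136 place 5, with 0.31.

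On CPM, ENSMUSG00000029148 was lower in liver in the primates and the beaver. Its lowest, median and highest values were 45.1, 51.5 and 73.3 CPM in baboon liver, 102, 107 and 113 in baboon kidney, and 106, 123 and 136 in baboon brain. In the macaque it had 68.3, 88.0 and 96.9 CPM in liver and 146, 161 and 165 in cerebellum, and the 5 kidneys gave 126, 121, 118, 128 and 137 CPM. Liver libraries lay below all libraries of the other organs in both primates. Beaver brains had 124 and 142 CPM and beaver livers 62.1 and 55.2 CPM, again without overlap. White-footed mouse liver was lowest at 43.8 CPM and white-footed mouse brain had 61.5 CPM. Bear kidney, at 59.2 CPM, and bear liver, at 57.8 CPM, were nearly equal, although the stable genes' median deviations were highest in bear kidney and lowest in bear liver.

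**Figure D3:**
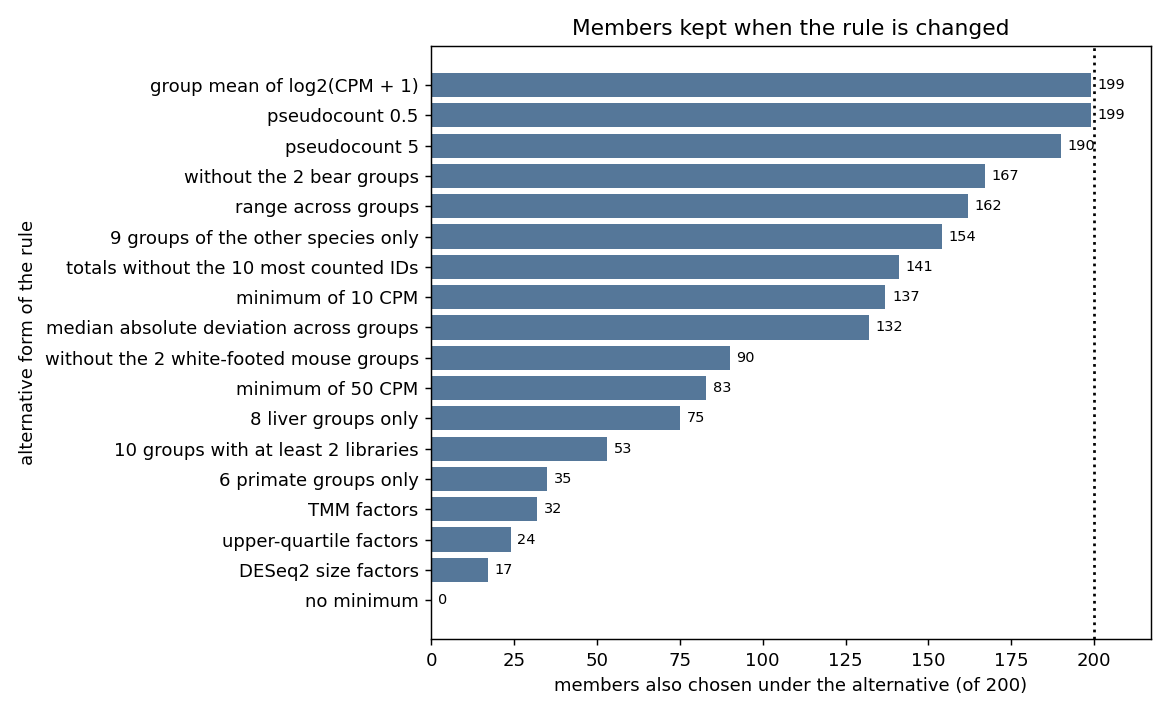
Number of the 200 stable genes (x axis) that are chosen again when 1 element of the rule is changed (y axis), with a dotted line at 200. Pseudocounts and averaging of logs kept 190 to 199 genes, whereas TMM, upper-quartile and DESeq2 scaling kept 32, 24 and 17.

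Elements of the rule other than the scale mattered unequally. A pseudocount of 0.5 in place of 1 kept 199 genes and one of 5 kept 190. The range over groups as the measure kept 162 genes, and the median absolute deviation kept 132. A minimum of 10 CPM kept 137 genes, and a minimum of 50 CPM, passed by 254 IDs, kept 83. Leaving out the 2 white-footed mouse libraries, a choice made after the data were seen, kept 90 genes of 1477 that then passed the minimum. Leaving out the 2 bear libraries, also chosen afterwards, kept 167.

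Groups of 1 library carried many of the extremes. For 164 of the 200 genes the lowest or the highest group was 1 of these 5 groups. Neither this count nor those per group below were compared with the screened genes or with a random choice of groups. They describe where the extremes lay and are not read as particular to the stable genes. Bear liver was the lowest group of 58 genes, white-footed mouse brain of 35, and beaver and baboon liver of 31 each. Bear kidney, white-footed mouse brain and beaver brain were each the highest group of 31. Over the 10 groups with at least 2 libraries the median SD of the 200 genes was 0.54, and the rule on those groups alone chose 53 of them again. ENSMUSG00000026750 illustrates the extremes: its bear liver value was 60.1 CPM and its white-footed mouse brain value 483 CPM, an 8.04-fold range. In the baboon it had 78.3 ± 4.35 CPM (SD, n = 6) in liver, 177 ± 5.24 (SD, n = 6) in brain and 178 ± 4.86 (SD, n = 6) in kidney. ENSMUSG00000000384 lay farthest up in bear kidney, at 224 CPM, against 113 ± 9.19 CPM (SD, n = 6) in baboon kidney and 32.4 ± 3.28 CPM (SD, n = 2) in beaver liver, its lowest group.

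Steadiness in one part of the groups was then set beside the groups not used. Applied to the 6 primate groups alone, the rule chose 200 of 2959 IDs, of which 35 belong to the stable genes. In the 9 groups of the other species those 200 had a median SD of 1.12, against 1.25 over the 2959, and 61.5% lay below that median. Only 63 of the 200 (31.5%, against 28.1% of the 2959) reached 20 CPM in all 9, so most of these SDs include groups under the minimum. Applied to the 9 other groups, it chose 200 of 886 IDs, of which 154 belong to the stable genes. In the primate groups these had a median SD of 0.57 against 0.71, and 74.0% lay below. The choices from the primate groups and from the other species shared 27 IDs, 13.5% of each.

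The same was done with organs. From the 8 liver groups the rule chose 200 of 1338 IDs, whose median SD in the 7 other groups was 0.83 against 1.04, with 69.0% below the median. From the 7 other groups it chose 200 of 1844, whose median SD in the livers was 0.72 against 0.87, with 65.5% below. In the groups not used, 72.0% of the liver choice reached 20 CPM throughout, against 62.1% of the 1338. For the choice from other organs it was 44.0%, against 45.1% of the 1844. The liver choice held 75 of the stable genes and the choice from other organs 64, and both choices shared 23 IDs, 11.5% of each. In each of these choices most of the chosen IDs lay on the steadier side in the part not used, but few IDs were among the 200 in both parts. These shares describe the same libraries on the same scale and carry no test.

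The spread between libraries of 1 group was not used by the rule. It is given as the SD of log2(CPM + 1) over libraries in the 6 groups with 5 or 6 libraries. In the macaque its median over the 200 genes was 0.10 in cerebellum, 0.13 in kidney and 0.18 in liver, beside 0.11, 0.14 and 0.20 over the screened genes. For the baboon it was 0.13 in brain, 0.12 in kidney and 0.20 in liver, beside 0.14, 0.14 and 0.19. The share of stable genes below the screened median ran from 49.5% in baboon liver to 67.0% in baboon kidney. On CPM, small variation between groups thus went with only slightly smaller variation between libraries, and in baboon liver not with smaller variation. The screened genes include the 200, and the order varied with level. At group means of 500 CPM or more, 13 stable genes had a median of 0.16 in macaque liver, against 0.25 over the screened genes. In macaque cerebellum 11 stable genes had 0.12 against 0.10. The spread of all 200 genes, as a median over the 6 groups, was smaller than their SD across groups.

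**Figure D4:**
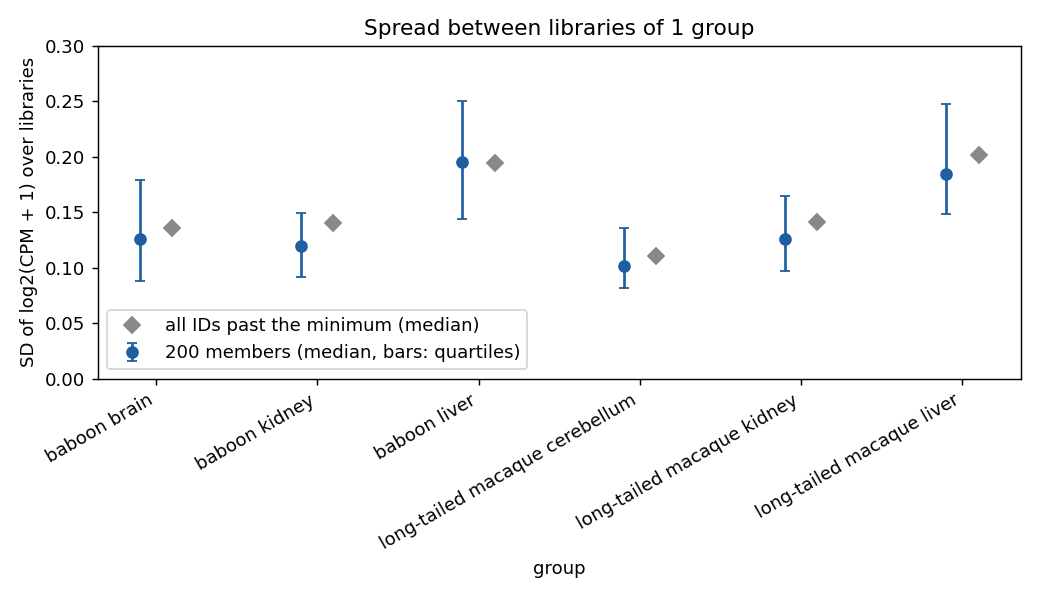
SD of log2(CPM + 1) over the libraries of each of 6 groups, as the median (points) and quartiles (bars) of the 200 stable genes, beside the median of the 831 screened genes (diamonds). Both primate livers have the highest medians, 0.20 and 0.18, and the diamonds lie within the quartiles of the stable genes in all 6 groups.

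Single genes differed in this spread. The 5 with the lowest median spread were ENSMUSG00000026750 (0.082), ENSMUSG00000053510, ENSMUSG00000040462, ENSMUSG00000021178 and ENSMUSG00000073640, all at or below 0.085. The highest were ENSMUSG00000030357 (0.50), ENSMUSG00000004846 (0.29), ENSMUSG00000021025 (0.28), ENSMUSG00000023939 (0.28) and ENSMUSG00000024955 (0.27). ENSMUSG00000026750 was thus the most even gene between libraries of a group and one of the last to enter by its SD between groups, at place 195.

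For ENSMUSG00000030357, 1 replicate number stood apart. In baboon kidney replicate 2 had 411 CPM and the 5 others 135 to 163 CPM. In baboon liver replicate 2 had 204 CPM and the others 59.6 to 86.8 CPM. Without that replicate its spread was 0.11 instead of 0.58 in kidney and 0.21 instead of 0.60 in liver. In baboon brain the 6 libraries ran from 172 to 228 CPM, and replicate 2 was the highest without standing apart. In the macaque, replicates 5 and 6 were the lowest libraries of this gene in all 3 organs, a pattern noticed after the values were seen. They had 417 and 377 CPM in cerebellum against 479 to 583 in the others, 116 and 108 CPM in kidney against 185 to 194, and 74.0 and 53.7 CPM in liver against 130 to 200.

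**Figure D5:**
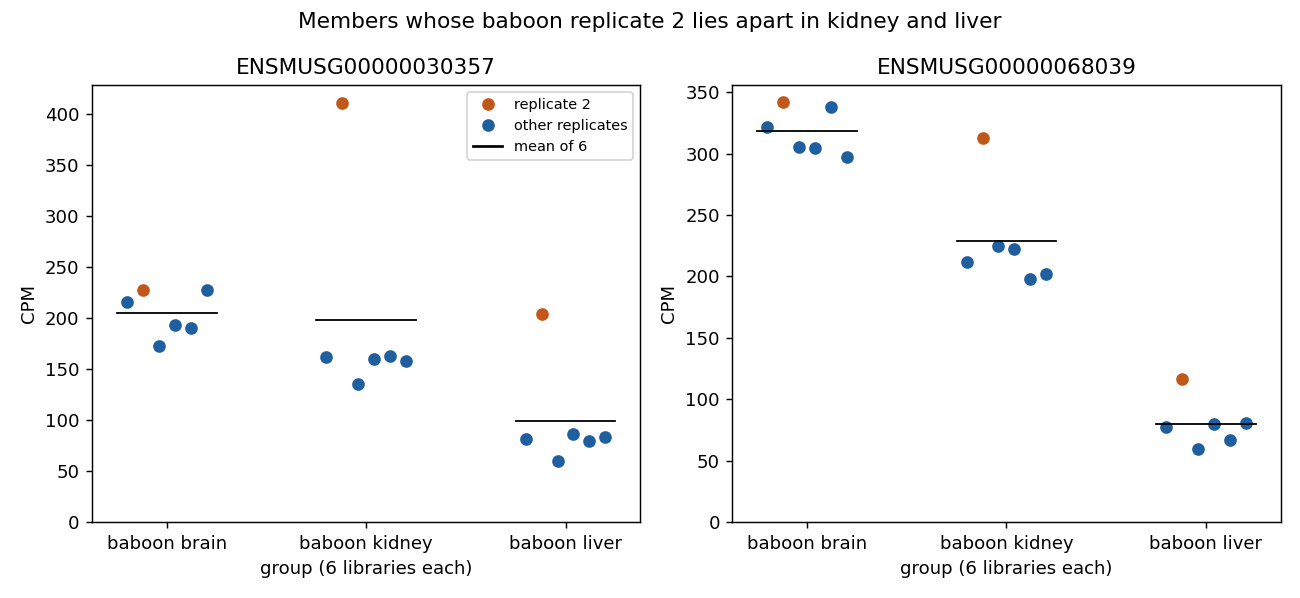
CPM of ENSMUSG00000030357 (left) and ENSMUSG00000068039 (right) in the 6 libraries of baboon brain, kidney and liver, with replicate 2 in orange, the other replicates in blue and the mean of 6 as a line. Replicate 2 lies above the other libraries in kidney and in liver, at 411 and 204 CPM for the first gene and at 313 and 117 CPM for the other.

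Organs were compared with edgeR's quasi-likelihood test and TMM factors, adjusted over all genes tested by the Benjamini-Hochberg method and called at an adjusted p under 0.05. The group means of these libraries chose the stable genes, so the counts of calls are descriptions. Comparisons within a species share libraries. In baboon, brain against liver gave calls for 172 of the 200 genes, 11 higher and 161 lower in brain, where 82.4% of the 13890 genes tested were called, 42.4% higher and 40% lower. The median log2 fold change was -0.77 for the stable genes and 0.05 for all genes. Kidney against liver gave 154 calls, 9 higher and 145 lower in kidney, beside 66.5% of all genes (35.3% higher, 31.2% lower), with medians of -0.46 and 0.06. Brain against kidney gave 153 calls, 30 higher and 123 lower in brain, beside 77.3% of all genes (38.2% higher, 39.1% lower), with medians of -0.34 and -0.02.

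In the macaque, cerebellum against liver gave 175 calls, 7 higher and 168 lower in cerebellum, beside 81.9% of the 13927 genes tested (42.1% higher, 39.8% lower), with medians of -0.98 for the stable genes and 0.06 for all. Kidney against liver gave 153 calls, 3 higher and 150 lower in kidney, beside 63.1% of all genes (32.7% higher, 30.4% lower), with medians of -0.48 and 0.02. Cerebellum against kidney gave 159 calls, 26 higher and 133 lower in cerebellum, beside 75.8% of all genes (37.9% higher, 37.8% lower), with medians of -0.47 and 0.02. In beaver, brain against liver gave 130 calls, 5 higher and 125 lower in brain, beside 64.4% of 13309 genes (35.2% higher, 29.3% lower), with medians of -0.68 and 0.12. Leaving out beaver brain replicate 1 left 65 calls and leaving out replicate 2 left 69, beside 41% and 40.9% of all genes, where the lone brain library is assumed to vary as the livers do.

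These directions are relative to the scale. With column totals alone, the scale that chose the genes, the median over all genes moved to 1.48 for baboon brain against liver, 1.47 for baboon kidney against liver, 1.51 for macaque cerebellum against liver, 1.26 for macaque kidney against liver and 1.49 for beaver brain against liver. Most calls were then higher in the other organ, among the stable genes and among all genes alike. In baboon brain 139 stable genes were higher and 30 lower than in liver, beside 71.8% and 16.4% of all genes. In baboon kidney all 186 stable genes called were higher, beside 80.2% of all genes higher and 8.08% lower. In macaque cerebellum 136 were higher and 23 lower, beside 71% and 17.6%, and in macaque kidney 183 and 2, beside 76.4% and 8.59%. In beaver brain 135 were higher and 10 lower, beside 67.7% and 11.8%. With column totals the median of the stable genes was 0.66, 0.95, 0.48, 0.76 and 0.69 in these 5 comparisons, below that of all genes, as with TMM. A change of factors moves the fold changes of all genes in a comparison nearly alike, so the second scale adds no separate result. The genes were also chosen as even on column totals, so nothing is read from this order. Brain against kidney in baboon kept its split, with 30 higher and 113 lower, beside 38.3% and 38% of all genes. Macaque cerebellum against kidney had 44 higher and 104 lower, beside 44.1% and 32.8%.

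Between the primates fewer stable genes were called than between organs, and the same held for all genes tested. The median absolute difference between the baboon and macaque group means was 0.13 on the log2 scale in kidney (0.15 over the screened genes) and 0.23 in liver (0.24). Within 1.5-fold of each other lay 191 stable genes in kidney (95.5%, against 94.1% of the screened genes) and 188 in liver (94.0%, against 88.3%). The test called 40 of the 200 genes (20%) in liver, 12 higher and 28 lower in baboon, beside 24.8% of 11948 genes tested (12.3% higher, 12.5% lower). In kidney it called 57 (28.5%), 10 higher and 47 lower in baboon, beside 30.9% of 13082 (15.3% higher, 15.6% lower). Both shares were close to those of all genes. The medians were -0.08 in both organs, against -0.01 and 0.00 over all genes. With column totals alone the split in liver was 5 higher and 50 lower, beside 8.34% and 16.6% of all genes. In kidney it was 13 higher and 25 lower, beside 18.4% and 12.1% of all genes, which leaned the other way.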

How the data were processed

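RNA was extracted from frozen organs with a column kit, per the labels' protocols. The authors deposited 1 table of raw counts per gene ID, with no normalization, for 48 libraries and 16816 IDs. Per the submitters' processing notes, STAR and featureCounts were among the tools. Their versions and settings, the genome builds, strand use and the way reads of 8 species reached 1 set of gene IDs were not stated in these sources, so counts shared between near-identical or overlapping genes are uncertain. Each column name matched 1 sample's description.

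Here CPM was computed from the column totals with a pseudocount of 1 before log2. Totals of 6326129 to 26801829 counts set the precision. Factors and tests used edgeR 4.0.16 in R 4.3.3 (TMM, filterByExpr, quasi-likelihood F test, two-sided, Benjamini-Hochberg over all genes tested), with DESeq2 1.42.0 as an alternative. The 9 comparisons were fitted within a species or within an organ of both primates. The scripts were tested on simulated data. Since nothing says that replicates are separate animals, the tests measure only the spread between these libraries.

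The members and gene lists were chosen with earlier results of these data known. The named genes are those of lowest SD, at the border of the set, of lowest and highest spread between libraries, kept under every scaling, and farthest in the group most often lowest or highest; genes of largest fold change were not described. Lists by function and marker lists are written as symbols and were not used here. Same-numbered libraries of different organs were checked for pairing by correlating their deviations from the group means over genes. The correlations were over 0.1 in all pairs of baboon kidney and liver (0.23 to 0.62) and in all pairs of the 3 macaque organs (0.10 to 0.52), but not in all pairs of baboon brain with kidney or liver.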

Additional observations from a re-analysis of the deposited data

Results flagged for a closer look

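In groups of 4 to 10 libraries, the highest or lowest library was compared with its nearest neighbour by Dixon's criterion at the 95% level, for the 41 named genes and the summed share of the stable genes in 6 groups. Of 252 tests 8 (3.17%) met it, where chance gives about 1 in 20 for genes not picked by their spread. The named genes include those of highest and lowest spread between libraries, taken from these same values, so that rate does not strictly apply to them. In baboon replicate 2, ENSMUSG00000030357 had 410.7 CPM in kidney (next library 162.7) and 204.3 CPM in liver (next 86.8). ENSMUSG00000068039 had 312.8 CPM in kidney (next 224.6) and 116.9 CPM in liver (next 80.5) in the same replicate. ENSMUSG00000024327 had 122.8 CPM in baboon kidney replicate 4 (next 108.2), and ENSMUSG00000000384 had 80.5 CPM in baboon brain replicate 5 (next 75.5). Below the others lay ENSMUSG00000094973 with 71.5 CPM in macaque cerebellum replicate 4 (next 80.5) and ENSMUSG00000025781 with 147.1 CPM in macaque liver replicate 1 (next 199.0).

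Over all 200 stable genes and the same 6 groups, 73 of 1200 such tests (6.08%) met the criterion, beside 294 of 4986 (5.90%) over the screened genes. Among the stable genes, ENSMUSG00000030357 and ENSMUSG00000068039 stood high in both kidney and liver of baboon replicate 2, and 6 screened genes did. ENSMUSG00000022216 stood high in both organs of baboon replicate 4, as did 2 screened genes.

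For 2 genes, brain against liver on CPM went opposite ways in baboon and beaver, with every library on its side. The log2 ratio of mean CPM for ENSMUSG00000058443 was -0.63 in baboon and 0.16 in beaver. For ENSMUSG00000040462 it was -0.49 in baboon and 0.23 in beaver. With TMM factors both genes were lower in brain in both species, with edgeR log2 fold changes of -2.06 and -1.22 for the first and -1.93 and -1.14 for the other. The difference between the species was not tested.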

How the results depend on the processing

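The number of the 200 genes chosen again was 32 with TMM, 24 with upper-quartile and 17 with DESeq2 factors, 83 with a minimum of 50 CPM, 132 by the median absolute deviation, 53 over the 10 replicated groups, 75 over the livers, 35 over the primate groups and, chosen after seeing the data, 90 without the white-footed mouse groups. With no minimum it was 0, since 572 IDs without any count then have an SD of 0. The other 8 alternatives, 1 of them (without the bear groups, 167) chosen after seeing the data, kept 137 to 199. Leaving out 1 library at a time kept 122 (without white-footed mouse brain) to 200 genes.

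Leaving out 1 library gave 65 to 124 calls for beaver brain against liver; for the other comparisons the counts stayed within 1.5 times of the reported ones: 166 to 172, 148 to 156 and 145 to 154 in baboon, 172 to 178, 139 to 154 and 154 to 164 in macaque, and 31 to 44 (liver) and 41 to 54 (kidney) between the primates. With the replicate number as a block, baboon against macaque kidney gave 31 calls instead of 57 and liver 27 instead of 40, with 59.3% instead of 70.0% of the calls lower; the species share these numbers by name only. The block changed no other count by over 1.5 times (170, 158, 155, 177, 156, 163 and, in beaver, 116). The correlation of same-numbered beaver libraries was 0.09. The spread between libraries stayed within its SD over genes under all alternatives. Counting error alone, with 2 deposited counts taken as 1 read pair, gave the middle stable gene a log2 SD, in each group's least precise library, from 0.046 in macaque kidney to 0.087 in white-footed mouse brain. The 5 single-library groups have no replicates.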
